A study of Mus musculus with 9 samples.

Results

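Small GTPases are molecular switches that are on when they hold GTP and off when they hold GDP, and the genes described here encode the proteins that turn them on or off. The set was every gene whose symbol begins with Arhgap, Srgap, Tbc1d, Rasa or Rasal, Sipa1, Arhgef, Dock, Ralg, Rapgef, Arfgef, Rasgr or Rgs, and it held 84 of the 9803 genes in the deposited table. Of these, 50 were classed as activating proteins (21 Arhgap, 1 Srgap, 19 Tbc1d, 6 Rasa or Rasal and 3 Sipa1 genes). Another 27 were classed as exchange factors (8 Arhgef, 7 Dock, 4 Rapgef, 3 Ralgds or Ralgps, 3 Rasgrp and 2 Arfgef genes). The remaining 7 are Rgs genes. The class follows the beginning of the symbol, also for a member that fits its class by name only. A gene with several table entries was represented by the entry with the highest mean signal over the 9 arrays. All 84 symbols were current in RefSeq.

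Exchange factors help a small GTPase release GDP and take up GTP, which switches it on, and activating proteins speed up its hydrolysis of GTP, which switches it off. In neurons, Rac, Cdc42 and RhoA shape the actin of dendritic spines, GTPases of the Ras and Rap families carry signals from synaptic receptors, and those of the Rab, Arf and Ral families direct vesicle traffic. Rgs proteins act in the same manner on the alpha subunits of heterotrimeric G proteins, not on small GTPases, so they were kept as a class of their own.

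The RNA came from amygdala of male C57BL/6J mice, aged 10 weeks at the time of defeat, and was recovered by immunoprecipitation of Ago2, the Argonaute protein that holds microRNAs and their target transcripts. There were 3 control arrays from mice without defeat (numbered 1, 2 and 4), 3 from defeated mice labelled susceptible and 3 from defeated mice labelled resilient, all taken 8 days after chronic social defeat, a repeated exposure to an aggressor. The sources used here state neither how mice were sorted into susceptible and resilient nor whether each array held tissue of 1 animal. The p-values therefore measure only the scatter among these arrays, and that scatter may be technical. No genetic change or drug is named for any group.

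Values are log2 signals of Affymetrix whole-transcript arrays after RMA, which corrects background, equalises the arrays and summarises probes. Each entry's signal depends on its probes, so levels were compared between arrays and not between genes. The number of arrays limits the precision. Array medians lay between 7.11 and 7.19, and 63 of the 84 regulators had a mean signal above the median of all table entries, 7.14. No total RNA and no control precipitation was analysed here, so the amount of a transcript, its binding to Ago2 and its carry-over cannot be told apart. In such bulk tissue, fewer cells of a type and less RNA per cell cannot be told apart either. The table holds only genes that differed somewhat between the 3 groups: for every symbol, at least 1 entry had a one-way analysis of variance p of 0.287 or less, computed from the deposited values.

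Marker lists of choroid plexus, oligodendrocytes and microglia moved with the groups, and other lists did so less. No choroid plexus, oligodendrocyte or microglia marker was called by limma (smallest adjusted p in defeated mice 0.105, 0.0702 and 0.0959). Of 20 listed choroid plexus and ependyma markers, 18 were in the table and all 18 were higher in defeated mice, with a median difference of 0.32. Their mean per array ranged from 8.80 to 9.24 in controls, from 9.29 to 9.71 in susceptible and from 8.82 to 9.32 in resilient mice. The 3 oligodendrocyte markers of 13 listed and the 6 microglia markers of 14 listed were all lower in defeated mice, with medians of -0.29 and -0.17. Oligodendrocyte means per array ranged from 9.27 to 9.41 in controls and from 8.87 to 9.02 in susceptible mice. Microglia means ranged from 9.09 to 9.22 and from 8.86 to 9.01. The list means of susceptible and control arrays thus did not overlap for any of the 3 lists, while those of resilient and control arrays overlapped for all 3. These means cover only markers in the table, which holds genes that differed somewhat between the groups. Listed markers that differed less may be missing from it, so shared direction and lack of overlap may come in part from this selection. The part of these cells in the regulators' values was not tested. Susceptible and control list means overlapped for astrocytes, for endothelium and pericytes, and for the pan-neuronal list. Of the markers in the table, 0 of 2, 2 of 3 and 1 of 2 were higher in defeated mice, with medians of -0.02, 0.10 and -0.02. Striatal-type markers are given further on. Of 10 listed amygdala and cortical excitatory neuron genes 1 was in the table, Mef2c, whose means were 11.71, 11.69 and 11.75 in control, susceptible and resilient mice.

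Defeated mice as 1 group, the mean of the susceptible and resilient groups, differed from controls in 2 of the 84 regulators at an adjusted p under 0.05, beside 1.29% of all genes. Ralgds rose, as did 1.01% of all genes, and Arhgap5 fell, as did 0.275%. Ralgds encodes an exchange factor that activates Ral GTPases and is itself an effector of Ras, and Arhgap5 encodes an activating protein that switches off RhoA. The same pair was called in susceptible mice, beside 2.4% of all genes (1.85% up and 0.551% down), while no regulator and no gene was called in resilient mice (0%) or between susceptible and resilient mice (0%).

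Ralgds read 9.83, 9.79 and 9.86 on the control arrays, 10.13, 10.15 and 10.17 on the susceptible arrays and 9.90, 9.99 and 9.99 on the resilient arrays. No group overlapped another, with control lowest, resilient between and susceptible highest. The group means were 9.83 ± 0.04 (control), 10.15 ± 0.02 (susceptible) and 9.96 ± 0.05 (resilient) (SD, n = 3 per group). Against controls, Ralgds was higher by 0.22 in defeated mice (SE 0.0339, limma adjusted p = 0.0371), a ratio of 1.17. In susceptible mice alone it was higher by 0.32 (SE 0.0391, limma adjusted p = 0.0253), a ratio of 1.25. In resilient mice the difference was 0.13 (SE 0.0391, limma adjusted p = 0.193), and that between susceptible and resilient mice was 0.19 (SE 0.0391, limma adjusted p = 0.411). The exact permutation p over arrays, not adjusted for the number of genes, was 0.0238 for defeated mice. It was 0.1 for susceptible mice, the smallest that 3 against 3 arrays can give.

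Arhgap5 moved the other way. Its signal was 10.92, 10.97 and 10.93 on the control arrays, 10.76, 10.66 and 10.62 on the susceptible arrays and 10.69, 10.67 and 10.65 on the resilient arrays. All 6 defeated arrays lay below all 3 control arrays, and the defeated groups overlapped each other. The means were 10.94 ± 0.03, 10.68 ± 0.07 and 10.67 ± 0.02 for control, susceptible and resilient (SD, n = 3 per group). Arhgap5 fell by 0.27 in defeated mice (SE 0.037, limma adjusted p = 0.0371) and by 0.26 in susceptible mice (SE 0.0428, limma adjusted p = 0.0397). In resilient mice the difference was -0.27 (SE 0.0428, limma adjusted p = 0.179), close in size to the susceptible difference, and susceptible minus resilient was 0.01. The exact permutation p was 0.0119 for defeated mice, the smallest that 3 against 6 arrays can give. It was not adjusted for the number of genes, and defeated and control arrays did not overlap for 17.4% of all genes.

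Both calls rested on the choice of arrays and of scaling. In defeated mice each lost its call without control 1, 2 or 4, susceptible 2 or 3, or resilient 2 or 3 (adjusted p from 0.0533 to 0.106), and without susceptible 1 the number of regulators called was 11 of 84 (13.1%), beside 13.6% of all genes. With the choroid plexus marker mean as a covariate, the susceptible difference was 0.26 for Ralgds (adjusted p = 0.279) and -0.22 for Arhgap5 (adjusted p = 0.323). That mean did not overlap between control arrays (8.80 to 9.24) and susceptible arrays (9.29 to 9.71). In any fit with this covariate, its part and that of the group cannot be fully told apart. When the adjustment also counted genes that the selected table leaves out, the smallest adjusted p of the pair was 0.0884, for Ralgds in susceptible mice. Every alternative kept the direction of both genes.

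The promoter window of Ralgds is shown because it is the called gene with a RefSeq window at its annotated gene start. It runs from 250 bases before to 50 bases after a transcription start (GRCm38.p6), and capitals mark CG dinucleotides, the sites of DNA methylation.
Ralgds, chr2:28512917-28513216, plus strand: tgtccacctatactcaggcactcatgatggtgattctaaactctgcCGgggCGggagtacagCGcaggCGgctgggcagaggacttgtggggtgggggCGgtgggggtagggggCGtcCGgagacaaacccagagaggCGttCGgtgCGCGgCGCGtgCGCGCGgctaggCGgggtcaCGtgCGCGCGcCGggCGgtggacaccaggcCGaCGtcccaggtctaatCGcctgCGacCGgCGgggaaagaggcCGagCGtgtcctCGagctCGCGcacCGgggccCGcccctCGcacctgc
The window, the first of 2 listed for Ralgds, is 71% G or C with 37 CG dinucleotides, and the median over all 32851 RefSeq windows was 52.7% with 7. It holds the E-box CACGTG, a palindrome and so the same on both strands, which occurred in 7.15% of all windows. RefSeq windows were matched for 66 of the 84 regulators, 91 windows in all, of which 50 had their transcription start within 250 bases of the gene start and 18.7% held this E-box. These windows were also richer in G and C, with a median of 62.7% and 21 CG dinucleotides, and the part of base composition was not tested. The share was 18.5% for regulators higher and 19.2% for those lower in defeated mice. A match describes these letters only and is not a binding site.

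Short of the threshold, the regulators were mostly higher in defeated mice. The difference was above 0 for 59 of 84, with a median of 0.09, while it was above 0 for 58.6% of all genes, with a median of 0.04. An unadjusted limma p under 0.05 was reached by 37 of 84 regulators, 29 higher and 8 lower. Over all genes it was reached by 36.9% (23.3% higher and 13.6% lower). Defeated and control arrays did not overlap for 17 of 84 regulators, 13 above and 4 below. Over all genes the share was 17.4% (10.9% above and 6.45% below). Among genes above the median signal, 50 of 63 regulators (79.4%) and 73.6% of all genes were higher, and below it 9 of 21 regulators (42.9%) and 43% of all genes.

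**Figure D1:**
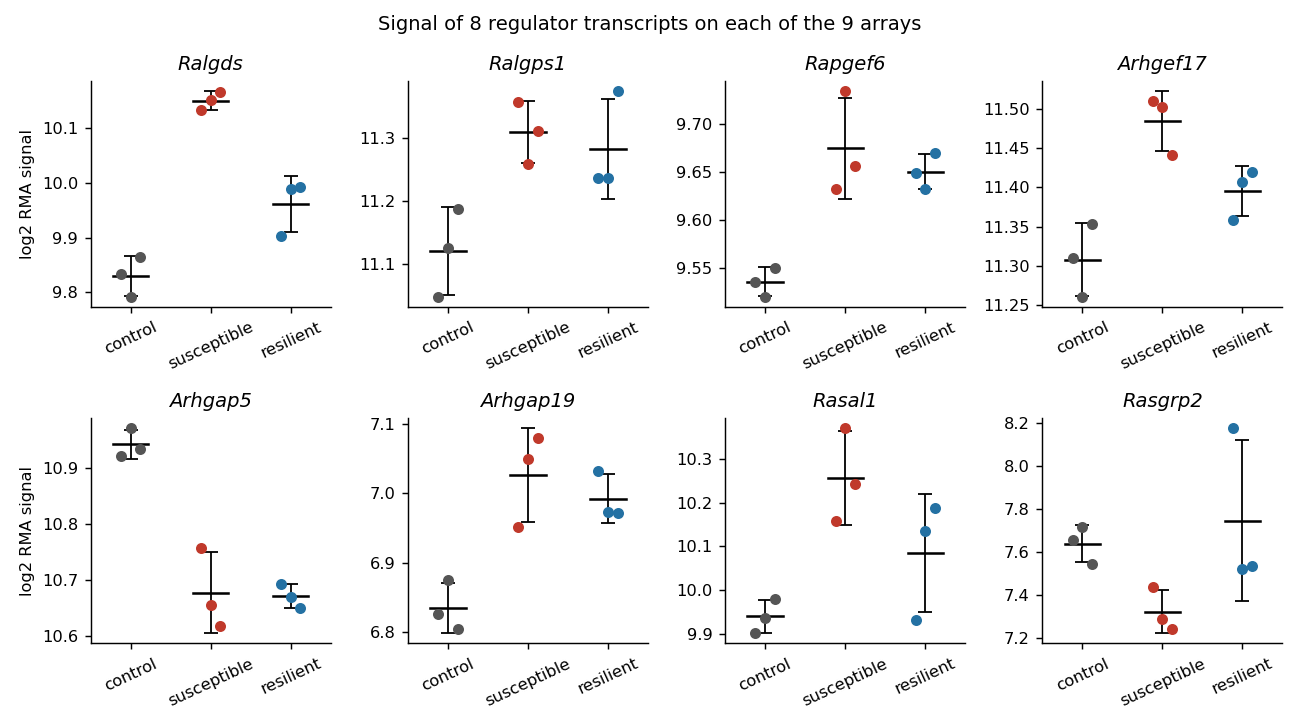
Signal (log2, y axis) of 8 regulators on the 9 arrays, grouped as control, susceptible and resilient on the x axis. Each dot is 1 array, the long bar is the group mean and the capped line its SD (n = 3). Ralgds is highest on the 3 susceptible arrays (10.13 to 10.17), Arhgap5 is lower on all 6 defeated arrays (10.62 to 10.76) than on the controls (10.92 to 10.97), and 1 resilient array of Rasgrp2 stands at 8.18. The y axes differ between panels and do not start at 0.

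The 8 Arhgef and the 7 Dock exchange factors were all higher in defeated mice, with median differences of 0.10 and 0.13, and none was called. After shifting the arrays to a common median, 6 of 8 Arhgef and 7 of 7 Dock genes stayed higher. Among them Arhgef17, an exchange factor for RhoA, had the smallest p. It read 11.31, 11.26 and 11.35 in controls, 11.51, 11.50 and 11.44 in susceptible and 11.36, 11.41 and 11.42 in resilient mice. Its 3 groups were ordered control, resilient, susceptible without overlap, and the differences from control were 0.18 in susceptible (SE 0.0398, limma adjusted p = 0.052) and 0.09 in resilient mice (SE 0.0398, limma adjusted p = 0.235).

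Arhgef11, which couples heterotrimeric G proteins to RhoA, read 10.30, 10.34 and 10.45 in controls, 10.47, 10.51 and 10.50 in susceptible and 10.42, 10.42 and 10.51 in resilient mice. The susceptible arrays lay above all controls and the resilient arrays overlapped them. Arhgef33 showed the other order: 5.73, 5.70 and 5.90 in controls, 5.83, 5.92 and 5.92 in susceptible and 6.09, 5.93 and 6.01 in resilient mice. Its resilient difference of 0.23 (SE 0.0618, limma adjusted p = 0.181) was larger than its susceptible difference of 0.12, and its signal was below the median of the table. Arhgef4, Arhgef5 and Arhgef1 had susceptible differences of 0.13, 0.16 and 0.15, and Arhgef16 and Arhgef19 differed from control by 0.07 or less in every group.

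The Dock genes encode exchange factors for Rac and Cdc42, and their defeated differences ran from 0.07 (Dock8) to 0.22 (Dock9). Dock9, which acts on Cdc42, read 11.07, 11.10 and 11.35 in controls, 11.34, 11.37 and 11.55 in susceptible and 11.19, 11.37 and 11.52 in resilient mice. Control 4 lay within the range of the defeated arrays, and the defeated difference had an SE of 0.0861 (limma adjusted p = 0.12). Dock3, a Rac exchange factor found mainly in brain, read 11.51, 11.51 and 11.36 in controls, 11.62, 11.55 and 11.54 in susceptible and 11.51, 11.56 and 11.72 in resilient mice. Its defeated arrays lay above all controls by a narrow margin, with a difference of 0.12 (SE 0.0538, limma adjusted p = 0.135). Dock11 on Cdc42, Dock5 and Dock6 had defeated differences of 0.17, 0.13 and 0.13.

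The 3 Ral exchange factors were higher in defeated mice, with a median of 0.18, although Ralgps2 turned to -0.02 after quantile normalisation. Ralgps1 read 11.05, 11.13 and 11.19 in controls, 11.36, 11.26 and 11.31 in susceptible and 11.24, 11.24 and 11.37 in resilient mice. Every defeated array lay above every control array, and the defeated difference was 0.18 (SE 0.0464, limma adjusted p = 0.0684). Unlike Ralgds, its susceptible and resilient values overlapped, with differences from control of 0.19 and 0.16. Ralgps2 differed by 0.06 (SE 0.0373, limma adjusted p = 0.205), within the spread of its groups.

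The 4 Rap exchange factors were also higher, with a median of 0.09. Rapgef6 read 9.54, 9.52 and 9.55 in controls, 9.63, 9.73 and 9.66 in susceptible and 9.65, 9.63 and 9.67 in resilient mice. The controls spanned a narrow range and all defeated arrays lay above it, with a defeated difference of 0.13 (SE 0.0325, limma adjusted p = 0.0656). Rapgef2, a Rap exchange factor of neurons, differed by 0.09 (SE 0.0412, limma adjusted p = 0.141). Rapgef3, the cAMP-activated exchange factor Epac, read 7.34 on 5 of its 9 arrays and differed by 0.09 (SE 0.0593), and its other table entry differed by -0.10.

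Arfgef1 and Arfgef2 encode the exchange factors that activate Arf GTPases for traffic at the Golgi and endosomes. Arfgef2 read 10.37, 10.34 and 10.48 in controls, 10.56, 10.57 and 10.75 in susceptible and 10.44, 10.52 and 10.68 in resilient mice. The susceptible arrays lay above all controls, and resilient 1 lay among the controls. The defeated difference was 0.19 (SE 0.0635, limma adjusted p = 0.0961) for Arfgef2 and 0.06 (SE 0.0426, limma adjusted p = 0.25) for Arfgef1.

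The 3 Rasgrp genes, whose products are switched by diacylglycerol and calcium and act on Ras and Rap, were the exchange factors with lower values in defeated mice, 0 of 3 being higher. Rasgrp3 read 9.19, 8.93 and 8.83 in controls, 8.69, 8.68 and 8.85 in susceptible and 8.99, 8.85 and 8.95 in resilient mice. Control 1 was its highest array, and the groups overlapped, with a defeated difference of -0.15 (SE 0.0761, limma adjusted p = 0.161) that was -0.05 without control 1 and -0.22 without control 4. Rasgrp4 differed by -0.03. Rasgrp2 differed by -0.11 (SE 0.133), with opposite signs in the susceptible and resilient groups that are given further on. With the choroid plexus marker mean as a covariate, Rasgrp2 differed by 0.11.

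**Figure D2:**
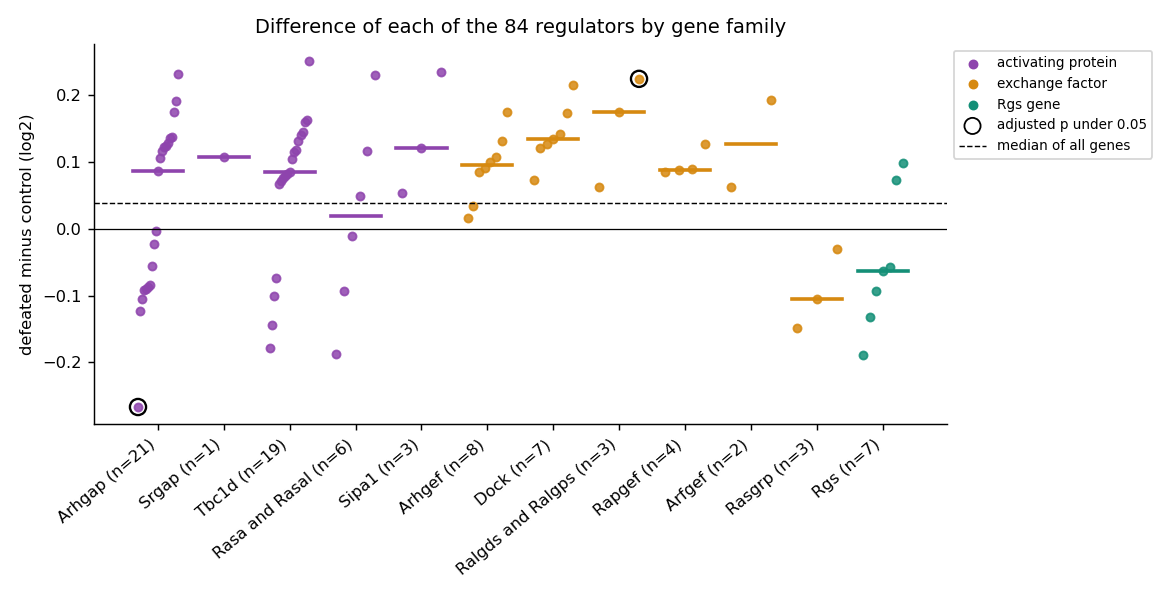
Defeated minus control difference (log2, y axis) of each of the 84 regulators, by gene family on the x axis. Each dot is 1 gene, the short line is the family median, the dashed line is the median of all genes (0.04) and rings mark the 2 genes called. All Arhgef, Dock, Rapgef, Ral and Arfgef genes lie above 0, the Rasgrp genes lie below 0, and the Arhgap, Tbc1d, Rasa and Rgs genes lie on both sides.

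The Arhgap activating proteins were split: 11 of 21 were higher in defeated mice, with a range from -0.27 for Arhgap5 to 0.23 for Arhgap39. The median of 0.09 is the value of Arhgap10, the lowest of the 11 higher genes. In susceptible mice 10 of 21 were higher, with a median of -0.0069, and in resilient mice 13 of 21, with a median of 0.03. Arhgap19, which acts on RhoA in dividing cells, read 6.83, 6.87 and 6.80 in controls, 6.95, 7.05 and 7.08 in susceptible and 7.03, 6.97 and 6.97 in resilient mice. All defeated arrays lay above all controls, and the difference was 0.17 (SE 0.0381, limma adjusted p = 0.055). Arhgap21, a Cdc42 regulator at the Golgi, read 11.21, 11.25 and 11.25 in controls, 11.34, 11.35 and 11.46 in susceptible and 11.30, 11.35 and 11.37 in resilient mice. It too was higher on every defeated array, by 0.12 (SE 0.0366, limma adjusted p = 0.079).

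Arhgap39, an activating protein for Rac and Cdc42 at spines, shared with Ralgds and Rasal1 the largest positive susceptible difference of the set, 0.32 (SE 0.106, limma adjusted p = 0.082). With the choroid plexus covariate it was 0.09 (adjusted p = 0.69). It read 10.23, 10.15 and 10.43 in controls, 10.43, 10.68 and 10.67 in susceptible and 10.22, 10.43 and 10.58 in resilient mice. Susceptible 1 lay just above control 4, the resilient arrays spanned the controls, and the exact permutation p for susceptible mice was 0.1, the smallest possible. Srgap2, an activating protein for Rac, differed by 0.11 (SE 0.0546, limma adjusted p = 0.161) in defeated mice. Arhgap18, Arhgap11a and Arhgap23 had resilient differences of 0.22, 0.19 and 0.15, each without overlap with controls (limma adjusted p from 0.201 to 0.208). The other entry of Arhgap23 differed by -0.08 in resilient mice.

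Among the Tbc1d genes, which encode activating proteins for Rab GTPases, 15 of 19 were higher in defeated mice (13 of 19 after quantile normalisation), with a median of 0.08. Tbc1d5, which works with the retromer on endosomes, had the largest positive defeated difference of the 84 regulators, 0.25 (SE 0.076, limma adjusted p = 0.0818). It read 7.20, 6.96 and 7.10 in controls, 7.18, 7.37 and 7.53 in susceptible and 7.37, 7.31 and 7.27 in resilient mice. Susceptible 1 lay below control 1, so the susceptible group overlapped controls and the resilient group did not. Tbc1d2b and Tbc1d10a were higher on every defeated array, by 0.15 (SE 0.0403, limma adjusted p = 0.0724) and 0.16 (SE 0.0495, limma adjusted p = 0.0818). Tbc1d24, known for its part in synaptic vesicle traffic and in human epilepsy, differed by 0.16 (SE 0.0638, limma adjusted p = 0.12), and Tbc1d1, known from glucose transport in muscle, by 0.14 (SE 0.0571, limma adjusted p = 0.123).

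Tbc1d19 and Tbc1d10c were lower on every defeated array. Tbc1d19 read 11.11, 11.19 and 11.14 in controls, 11.06, 10.97 and 10.98 in susceptible and 11.01, 10.94 and 11.06 in resilient mice, a defeated difference of -0.14 (SE 0.0384, limma adjusted p = 0.0697). Tbc1d10c, a lymphocyte protein that restrains calcineurin and Ras, read 5.31, 5.32 and 5.24 in controls, 5.14, 5.08 and 5.05 in susceptible and 5.05, 5.16 and 5.20 in resilient mice, a difference of -0.18 (SE 0.0419, limma adjusted p = 0.0585). In both genes the susceptible and resilient arrays overlapped, and the signal of Tbc1d10c was below the median of all entries. Tbc1d7, a subunit of the tuberous sclerosis complex, had its lowest value on resilient 2 (8.88) and a resilient difference of -0.14 (SE 0.0578, limma adjusted p = 0.229).

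The Ras activating proteins were split, 3 of 6 higher, with a median of 0.02 that turned to -0.02 after shifting the arrays and to -0.06 after quantile normalisation. Rasal1, a calcium-responsive RasGAP, read 9.90, 9.94 and 9.98 in controls, 10.16, 10.37 and 10.24 in susceptible and 9.93, 10.14 and 10.19 in resilient mice. The susceptible arrays stood clear of the controls, and resilient 1 lay among the controls. The differences were 0.32 in susceptible (SE 0.0732, limma adjusted p = 0.053) and 0.15 in resilient mice (SE 0.0732, limma adjusted p = 0.25). Rasal2 differed by 0.12 in defeated mice, and Rasa4 and Rasal3 by -0.19 and -0.09.

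The 3 Sipa1-like RapGAPs were higher in defeated mice, with a median of 0.12. Sipa1l1, a RapGAP of the postsynaptic density, read 11.95, 11.97 and 11.96 in controls, 11.99, 12.01 and 12.04 in susceptible and 11.99, 12.01 and 12.02 in resilient mice. All defeated arrays lay above all controls, though the difference was only 0.05 (SE 0.0281, limma adjusted p = 0.166). Sipa1l3 had a larger difference, 0.23 (SE 0.0922, limma adjusted p = 0.118), with overlapping groups, since control 4 read 10.40 and the other control arrays 10.04 and 10.10.

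The split among activating proteins followed array signal, a pattern noted after the values were seen. Of the 14 activating proteins with a mean signal below the median of all entries, 3 were higher in defeated mice (median -0.09), and of the 36 above it, 30 were higher (median 0.11). Over all genes, 2065 of 4802 below the median signal and 3681 of 5001 above it were higher. The exchange factors had 6 of 7 higher below the median signal and 18 of 20 above it. Of the activating proteins named here, Arhgap11a, Arhgap19, Arhgap27, Arhgap28, Rasa4, Rasal3 and Tbc1d10c had a signal below the median. The exchange factors below it were Arhgef1, Arhgef16, Arhgef19, Arhgef33, Arhgef5, Dock8 and Rasgrp4.

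Of the 7 Rgs genes, 2 were higher and 5 lower in defeated mice, with a median of -0.06, and 1 was higher and 6 lower in susceptible mice, with a median of -0.10. With the choroid plexus marker mean as a covariate these medians were -0.0072 and -0.0014, with 3 of 7 higher in both. Rgs7, a neuronal regulator of the inhibitory G protein subunits, read 11.35, 11.33 and 11.23 in controls, 11.22, 11.22 and 11.15 in susceptible and 11.20, 11.23 and 11.23 in resilient mice. The susceptible arrays lay below all controls, and the defeated difference was -0.09 (SE 0.0367, limma adjusted p = 0.119). Rgs2, which acts on Gq, differed by -0.06 (SE 0.0398, limma adjusted p = 0.262), within the spread of its groups. Rgs5, a gene of pericytes, was lowest on susceptible 1 (8.33, with controls from 8.70 to 8.98), and its defeated difference was -0.19 (SE 0.0978, limma adjusted p = 0.164). Rgs19 differed by 0.07 (0.0055 after quantile normalisation) and Rgs16 by 0.10 (0.20 without control 1 and 0.03 without control 2).

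Activating proteins and exchange factors had nearly equal median differences. In defeated mice the medians were 0.09 over 50 activating proteins and 0.10 over 27 exchange factors, a gap of -0.014, against 0.04 over all genes. The medians were 0.04 and 0.06 with the arrays shifted (all genes -0.0042), 0.03 and 0.05 after quantile normalisation (all genes 0.0084) and 0.06 and 0.05 with the choroid plexus covariate (all genes 0.02). The gap was 0.0032 without susceptible 3. The gap was -0.030 in susceptible mice (medians 0.10 and 0.13) and -0.045 in resilient mice (0.06 and 0.10). After quantile normalisation the susceptible medians were 0.02 and 0.08. Over the alternatives other than leaving out arrays, which include counting Rgs genes as activating, the gap ran from -0.057 to -0.017 in susceptible mice. In resilient mice it ran from -0.062 to -0.00017. The SD of the gap between single arrays of a group was 0.031, and a gap between groups of 3 arrays is on another scale. The counts were further apart than the medians: 33 of 50 activating proteins (66%) and 24 of 27 exchange factors (88.9%) were higher in defeated mice. In susceptible mice these counts were 32 and 24, and in resilient mice 36 and 24. Members of a class share the arrays and are not replicates, so no test was made of this difference.

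On single arrays, the median difference of the exchange factors from the control mean was 0.10, 0.10 and 0.13 on the susceptible arrays and 0.02, 0.08 and 0.13 on the resilient arrays. For the activating proteins it was 0.05, 0.08 and 0.10, and 0.01, 0.07 and 0.11. Resilient 1 lay near the controls in both classes, and resilient 3 was as high as the susceptible arrays. The exchange factor median exceeded that of the activating proteins on all 6 defeated arrays and on 2 of 3 control arrays. The Rgs genes read -0.08, -0.08 and -0.15 on the susceptible arrays and 0.00, -0.03 and -0.07 on the resilient arrays.

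**Figure D3:**
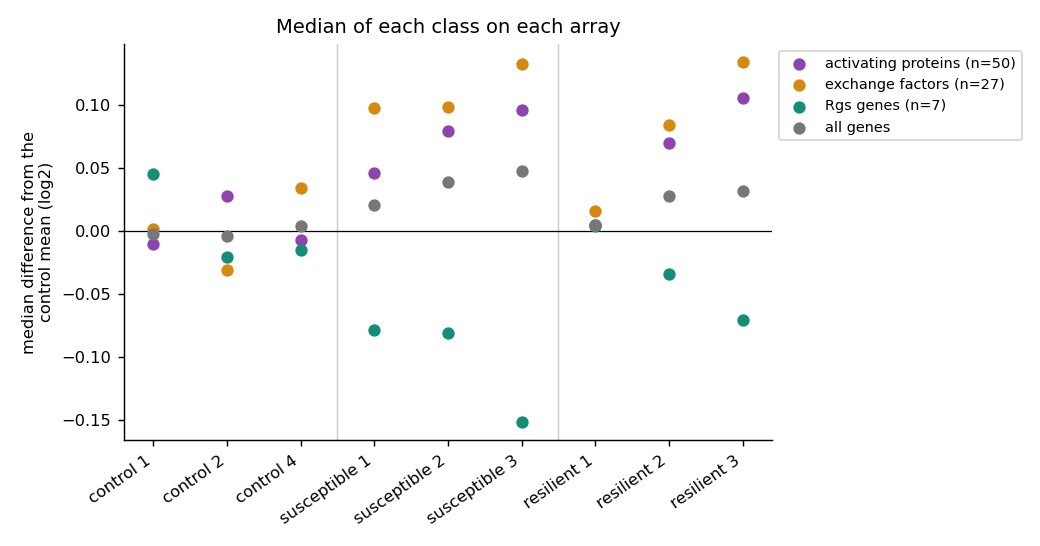
Median over the genes of a class of the difference from the control mean (log2, y axis), on each of the 9 arrays (x axis). Dots stand for 50 activating proteins, 27 exchange factors, 7 Rgs genes and all genes. The exchange factors are highest on all 6 defeated arrays (0.02 to 0.13), resilient 1 is near 0 in every class, and the Rgs genes are lowest on susceptible 3 (-0.15).

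In susceptible mice 57 of the 84 regulators had a difference above 0, against 57.9% of all genes, and their median was 0.10 against 0.05 over all genes. The groups did not overlap for 47 of 84 regulators, 33 above and 14 below controls, against 40.2% of all genes (25.4% above and 14.8% below). An unadjusted limma p under 0.05 was reached by 42 of 84 regulators (32 higher and 10 lower). Over all genes it was reached by 40.7% (25.9% higher and 14.8% lower). After Ralgds and Arhgap5 the smallest adjusted p-values by limma were those of Arhgef17 (0.052), Arhgap19 (0.0527) and Rasal1 (0.053). Without susceptible 1 the number called was 16 (19% of regulators, beside 19.7% of all genes), without resilient 1 it was 5 (5.95%, beside 3.94%), without control 4 it was 1 (1.19%, beside 0.908%), and without control 1, control 2, susceptible 2, susceptible 3 or resilient 2 it was 0.

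In resilient mice 63 of the 84 regulators had a difference above 0, against 58.4% of all genes, and their median was 0.07 against 0.03. None was called by limma. The groups did not overlap for 24 of 84 regulators, 18 above and 6 below, against 28.1% of all genes (16.7% above and 11.4% below). An unadjusted limma p under 0.05 was reached by 24 of 84 regulators (17 higher and 7 lower). Over all genes it was reached by 21.2% (13.6% higher and 7.6% lower). The smallest adjusted p was that of Arhgap5 (0.179), followed by Arhgef33 (0.181). The susceptible and resilient comparisons share the control arrays, so their likeness is not independent evidence.

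**Figure D4:**
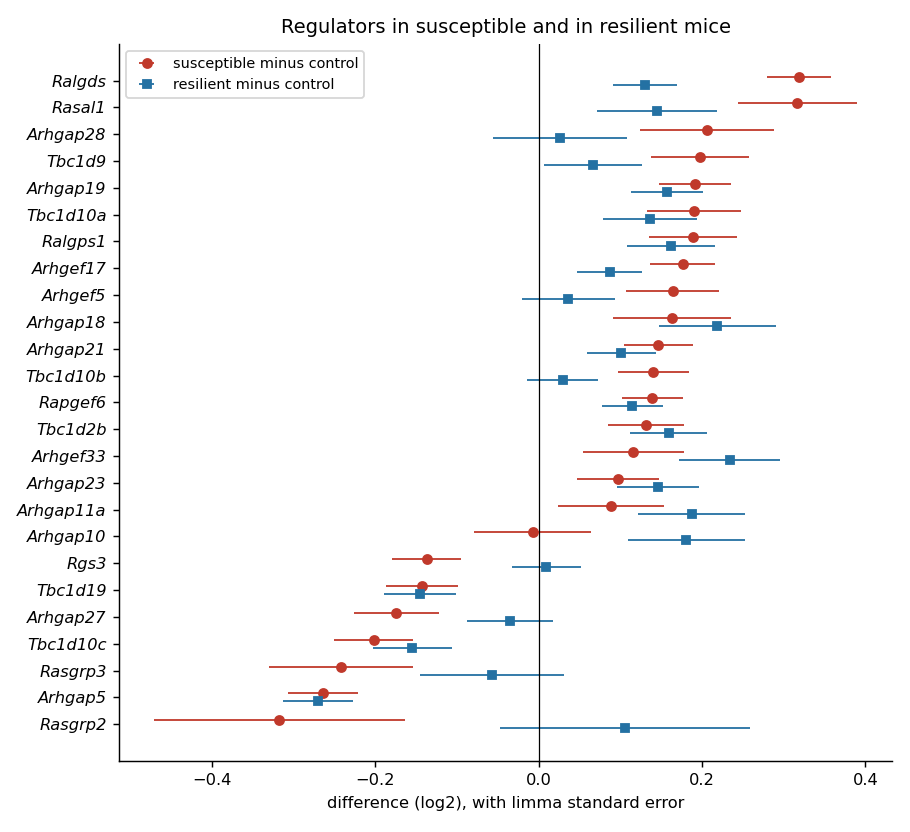
Difference from control (log2, x axis) in susceptible (circles) and resilient mice (squares) for 25 regulators (y axis), with limma's standard error as bars. Ralgds stands at 0.32 and 0.13, Arhgap5 at -0.26 and -0.27, and Rasgrp2 at -0.32 and 0.11.

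Between susceptible and resilient mice no regulator was called, and an unadjusted limma p under 0.05 was reached by 8 of 84 (4 higher and 4 lower in susceptible mice) against 11.8% of all genes (6.61% higher and 5.2% lower). The difference was above 0 for 50 of 84 regulators, against 54.1% of all genes. The groups did not overlap for 14 of 84 regulators, 6 above and 8 below, against 15% of all genes (8.35% above and 6.65% below). Ralgds had the smallest unadjusted p of the set, 0.000825 by limma (adjusted p = 0.411), with all susceptible arrays above all resilient arrays. Rasal1, Arhgef5, Tbc1d10b and Arhgap28 were higher in susceptible mice by 0.17, 0.13, 0.11 and 0.18, with a limma adjusted p of 0.411 each.

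Rgs3, an Rgs protein for Gi and Gq, read 7.66, 7.66 and 7.71 in controls, 7.57, 7.59 and 7.46 in susceptible and 7.66, 7.71 and 7.69 in resilient mice. The susceptible arrays lay below all other arrays, and susceptible minus resilient was -0.15 (SE 0.0421, limma adjusted p = 0.411). Rgs16 and Rgs20 had differences of -0.20 and -0.18 in the same comparison, and 6 of 7 Rgs genes were lower in susceptible than in resilient mice. The median over the 7 was -0.13. It was -0.07 without susceptible 1 and likewise without resilient 1, -0.02 with array weights, and -0.00078 with 3 of 7 higher once the choroid plexus marker mean was a covariate. Arhgap10, which regulates RhoA and Cdc42, read 9.03, 9.02 and 8.89 in susceptible and 9.17, 9.09 and 9.24 in resilient mice, a difference of -0.19 (SE 0.0716, limma adjusted p = 0.411). Arhgap27 differed by -0.14 (SE 0.0525), with 6.56, 6.50 and 6.35 in susceptible and 6.61 on each resilient array.

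Rasgrp2, a calcium-switched exchange factor for Rap that is known from striatum and platelets, had the largest difference between the defeated groups. It read 7.66, 7.72 and 7.55 in controls, 7.44, 7.29 and 7.24 in susceptible and 8.18, 7.52 and 7.54 in resilient mice. The susceptible arrays lay below all others, and resilient 1 stood far above every other array, while resilient 2 and 3 lay just below the controls. Susceptible minus resilient was -0.42 (SE 0.153, limma adjusted p = 0.411, exact permutation p = 0.1, the smallest possible). It was -0.21 without resilient 1 and -0.18 with the choroid plexus covariate. The 5 striatal-type neuron markers in the table, of 12 listed, had a mean of 10.41 on resilient 1, 9.49 and 9.38 on resilient 2 and 3, 9.46 to 9.81 on the controls and 8.89 to 9.48 on the susceptible arrays. One of them, Drd2, the dopamine D2 receptor, had means of 9.99, 9.54 and 10.08 in control, susceptible and resilient mice, and the part of such cells in the Rasgrp2 values was not tested.

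Of the 84 regulators, 75 had 1 table entry and 9 had several. All 5 entries of Arfgef2 were higher in defeated mice, by 0.16 to 0.30, and in 4 of them every defeated array lay above every control array. The kept entry was the one with overlap. Dock6, a Rac and Cdc42 exchange factor, had 15 entries that ran from -0.18 to 0.28, with 8 higher and 7 lower, so its kept value of 0.13 does not stand for the whole gene. Tbc1d9 had 1 entry at 0.13 and another at -0.19.

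**Figure D5:**
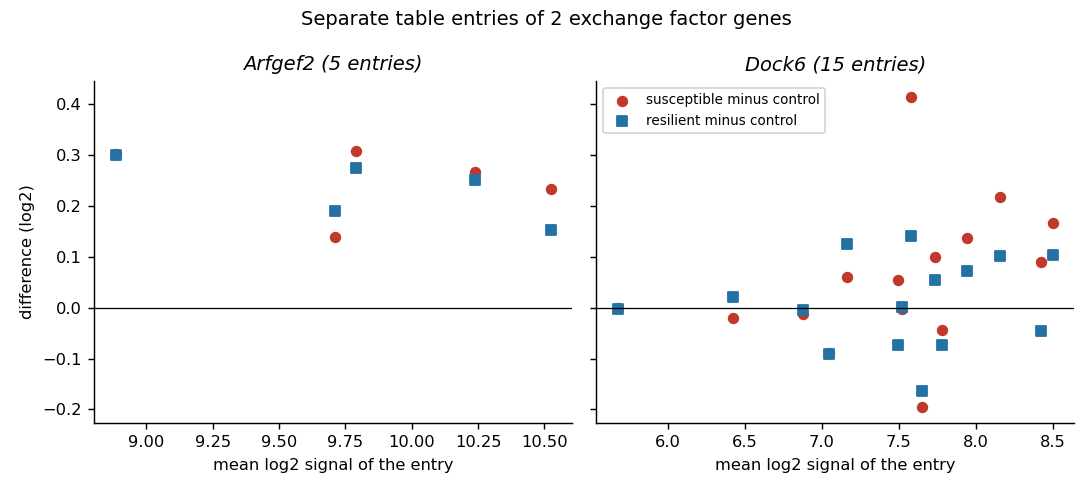
Difference from control (log2, y axis) of every table entry of Arfgef2 (5 entries) and Dock6 (15 entries) against the entry's mean signal (log2, x axis), in susceptible (circles) and resilient mice (squares). All Arfgef2 entries lie above 0, and those of Dock6 lie on both sides, from -0.20 to 0.41 in susceptible mice.

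Outside the named families, other genes of the pathway gave 3 calls in defeated mice, where 1.29% of all genes were called. Of 15 other exchange factors in the table, 41 being listed, 12 were higher and 2 were called. Mcf2l, an exchange factor for RhoA and Cdc42, rose by 0.27 (SE 0.0474, limma adjusted p = 0.0408), and Trio, which activates Rac and RhoA in growing axons, rose by 0.23 (SE 0.044, limma adjusted p = 0.0471). Kalrn, the relative of Trio at dendritic spines, and Tiam1, a Rac exchange factor, differed by 0.23 (limma adjusted p = 0.055) and 0.22 (limma adjusted p = 0.0788). Of 17 other activating proteins, 30 being listed, 15 were higher and 1 was called, Stard13, which rose by 0.24 (SE 0.0411, limma adjusted p = 0.0408). Each of the 3 calls was lost with the arrays shifted, after quantile normalisation, with the allowance for selection, the replicate block or the covariate, and without any 1 of control 1, 2 or 4, susceptible 2 or 3, or resilient 2 or 3, with an adjusted p of up to 0.165 for Mcf2l and Stard13 and 0.185 for Trio. That of Trio was also lost under both other choices of entry.

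The GTPases that these proteins act on showed no call, and 6 of the 19 in the table, 44 being listed, were higher in defeated mice, with a median of -0.05. Cdc42 read lower on every defeated array than on any control array, with means of 12.78, 12.66 and 12.63 in control, susceptible and resilient mice and a defeated difference of -0.14 (SE 0.0292, limma adjusted p = 0.0542). Rhoa differed by -0.05 (SE 0.0342, limma adjusted p = 0.287). The dissociation inhibitors, which hold GTPases off the membrane, had 1 of 3 higher, with Gdi2 at -0.08. Effectors, which read the switched-on GTPase, had 10 of 19 higher (9 of 19 after shifting the arrays). Their differences ran from -0.18 to 0.26, with a smallest limma adjusted p of 0.0522. An unadjusted limma p under 0.05 was reached by 7 higher and 3 lower effectors, beside 23.3% and 13.6% of all genes. Defeated and control arrays did not overlap for 5 above and 0 below, beside 10.9% and 6.45% of all genes. Among the lower effectors, the kinase Rock2 differed by -0.10 (SE 0.0381, limma adjusted p = 0.113).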

How the data were processed

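The deposited values were log2 signals; the submitters' processing notes name RMA and Partek. Their versions, the array version and the build are not stated in the sources used. Symbols were joined by identifier from another deposited table, whose 9 value columns matched no sample label and were not used. The entry with the highest mean was kept for each symbol. One limma model (limma 3.58.1, R 4.3.3) estimated the 3 group means from the 9 arrays for every gene, and two-sided p-values were adjusted by Benjamini-Hochberg over the whole table. Calls required an adjusted p below 0.05. The eBayes prior had 3.40 degrees of freedom. The fit was tested on simulated data with independent errors and larger differences than those called here. That test does not speak to differences of this size or to the selection of the table. Named in each comparison were the called regulators and those with the smallest p up to 12, plus 19 of 43 genes with well-known roles that were in the table. Genes named for another reason, such as several entries or a place in a family, were chosen after their values were seen. The regulators, gene lists and markers were chosen with earlier results of these data known. Errors are SD for group means and limma's standard error (SE) for differences. Alternatives covered scaling, the entry kept, a filter on low signal, genes left out of the table (each p divided by 0.287, the largest analysis of variance p, before adjustment), array weights, a mean-variance trend, the groups fitted, a replicate block, a choroid plexus covariate and each array left out. Figures were drawn with matplotlib 3.10.9, and tables made with scipy 1.17.1, numpy 2.4.6 and pandas 2.3.3 under Python 3.11.15. Some results on genes withheld for evaluation are not reported here.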

Additional observations from a re-analysis of the deposited data

How the results depend on the processing

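The number of regulators called in defeated mice, 2 as reported, was 0 with the arrays shifted to a common median, after quantile normalisation, with the allowance for selection, with the choroid plexus covariate and with the replicate block, 5 of 63 with a filter on low signal (7.94%, beside 8.76% of all genes) and 25 with array weights (29.8%, beside 21.3%). Leaving out 1 array each gave 0 to 11, with 11 without susceptible 1 (13.1%, beside 13.6% of all genes), 3 without resilient 1 (3.57%, beside 4.39%) and 0 without any of the others. In susceptible mice, also 2 as reported, it was 0 after quantile normalisation, with the allowance, in a fit of the compared groups alone, with the covariate and with the replicate block, 5 of 63 with the filter (7.94%, beside 11% of all genes), 5 with a mean-variance trend (5.95%, beside 4.15%) and 38 with array weights (45.2%, beside 35.1%). Leaving out 1 array each gave 0 to 16. No alternative called a regulator in resilient mice or between susceptible and resilient mice. The labels do not say whether same-numbered arrays belong together. Deviations of same-numbered arrays correlated from -0.08 to 0.25, and no gene was called with the block. Control 4 was the only array of its number, so the block fitted it exactly, and the lack of calls does not decide the question. The gap between the class medians ranged, with 1 array left out, from -0.041 to 0.0032 in defeated mice, from -0.071 to -0.030 in susceptible mice, from -0.045 to -0.0077 in resilient mice and from -0.035 to -0.013 between them. With the covariate it was 0.0055 in defeated mice. With the filter on low signal it was -0.000172 in resilient mice and 0.0036 between susceptible and resilient mice, and 0.019 there with the covariate. Directions turned for Rasgrp2 (0.11), Rasgrp4 (0.0057) and Rgs20 (0.018) in defeated mice with the covariate, and for Ralgps2 (-0.018) after quantile normalisation. With the lowest entry they turned for Rapgef3 (-0.10) and Dock6 (-0.0016) in defeated mice, for Tbc1d9 in susceptible mice (-0.20) and between susceptible and resilient mice (-0.016), and for Arhgap23 in resilient mice (-0.077). Rapgef3 was at -0.0041 with the mean of its entries. Of 80 single-gene differences examined, 34 became smaller by over 1.5 times or turned with the covariate, 24 after quantile normalisation and 19 with the arrays shifted. The causes were not tested. The number of arrays limits every call.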
